A study of Mus musculus with 6 samples.

Results

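Lysophosphatidic acid (LPA) is a signalling lipid that cells make outside the membrane or release, and the genes described here are its 6 receptors, Lpar1 to Lpar6, together with Enpp2, which encodes autotaxin, the secreted enzyme that makes it. They were chosen by name: every noncontrol probe of the arrays whose gene name was a member or an older synonym of it, with all probes of each gene kept. This gave 9 probes of 7 genes, of 29590 genes on the arrays. Mouse bone marrow-derived mast cells (BMMCs) were measured on 6 single-colour Agilent arrays, with 1 array a group, each hybridised with RNA pooled from 3 samples. The groups were WT BMMCs on Lpar1-/- Swiss 3T3 fibroblasts, WT BMMCs on Lpar1+/+ Swiss 3T3 fibroblasts, Pla2g3-/- BMMCs on WT Swiss 3T3 fibroblasts, Pla2g3+/+ BMMCs on WT Swiss 3T3 fibroblasts, Pla2g3-/- BMMCs alone and Pla2g3+/+ BMMCs alone. All mast cells were grown in interleukin-3 (10 ng/ml), and the cocultures lasted 4 days with stem cell factor (100 ng/ml), the ligand of Kit. Swiss 3T3 is an established mouse fibroblast line. The Lpar1-/- fibroblasts came from CRISPR/Cas9 editing and single-cell cloning, which limits them to the line or lines so derived.

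Autotaxin removes the choline headgroup of lysophosphatidylcholine outside the cell and so forms LPA. Lpar1, Lpar2 and Lpar3 belong to the Edg family of G protein-coupled receptors, whereas Lpar4, Lpar5 and Lpar6 are closer in sequence to the P2Y nucleotide receptors. The receptors act through several classes of G protein, and from there on phospholipase C and adenylyl cyclase. Pla2g3, the gene named in the mast cell genotype, encodes a secreted phospholipase A2, an enzyme class that releases lysophospholipids.

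Of the receptors, 3 differed strongly between the cocultures. Lpar6 was 18.4-fold higher and Lpar4 11.1-fold and Lpar2 4.63-fold lower in the coculture on Lpar1-/- than in that on Lpar1+/+ fibroblasts. Under the Pla2g3-/- label in coculture, Lpar6 was 17.1-fold higher and Lpar4 7.92-fold and Lpar2 3.67-fold lower than in the Pla2g3+/+ coculture. The cocultures also held fibroblast RNA, so these differences are not assigned to the mast cells. Without fibroblasts, the 5 members that could be compared differed between the Pla2g3 labels by at most 1.23-fold. Enpp2 was well above background in 3 of the 4 cocultures and on neither array of cells alone. Since each group had 1 array, these differences carry no test over cultures.

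Each value below is a level on the log2 scale, the scanner's processed intensity relative to the 75th percentile of its own array, which is set to 0. An error given with a difference is the scanner software's error of both spots and not a spread between cultures. A member was counted as higher or lower from a 2-fold difference, 1 on the log2 scale, as long as its probe was well above background on at least 1 of both arrays. The nearest stand-in for a spread was the pair of wild-type cocultures, WT BMMCs on Lpar1+/+ fibroblasts and Pla2g3+/+ BMMCs on WT fibroblasts. Over the 21920 genes measured on both, the SD of their log2 difference was 0.25, and 95% lay within 0.54. Such a range was also taken among genes within 0.5 of a member's own mean level in that pair. It was narrower for Lpar6 (0.25) and between 0.42 and 0.54 for Lpar1, Lpar2, Lpar4, Lpar5 and Enpp2.

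The 75th percentile of the intensity was between 1230 and 1520 on the 6 arrays, and 70.7% to 80.4% of the 43020 noncontrol spots were well above background. Slide 1 held both cultures alone and slide 2 all 4 cocultures, so an effect of coculture and an effect of the slide cannot be told apart. The wild-type pair was on slide 2, so its range holds no difference between slides. Stem cell factor is given for the cocultures, and whether cells alone received it is not stated. Its effect in the contrasts of coculture with cells alone cannot be told apart either. The gene named in the mast cell label went against it: the Pla2g3 probe with the highest mean read -1.84 and 0.51 in coculture and alone under the Pla2g3-/- label, against -7.31 and -6.31 under Pla2g3+/+. Nothing used here says which part of the gene the allele lacks, so those 2 arrays are called by their label throughout. All 11 mast cell markers were well above background on every array. Fibroblast markers were also present in the cocultures: 17, 16, 15 and 16 of 18 were well above background in WT cells on Lpar1-/- fibroblasts, WT cells on Lpar1+/+ fibroblasts, and the labelled Pla2g3-/- and the Pla2g3+/+ cocultures, against 8 of 18 in both cultures alone. In such mixed RNA, fewer cells of a type and less RNA per cell cannot be told apart.

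**Figure D1:**
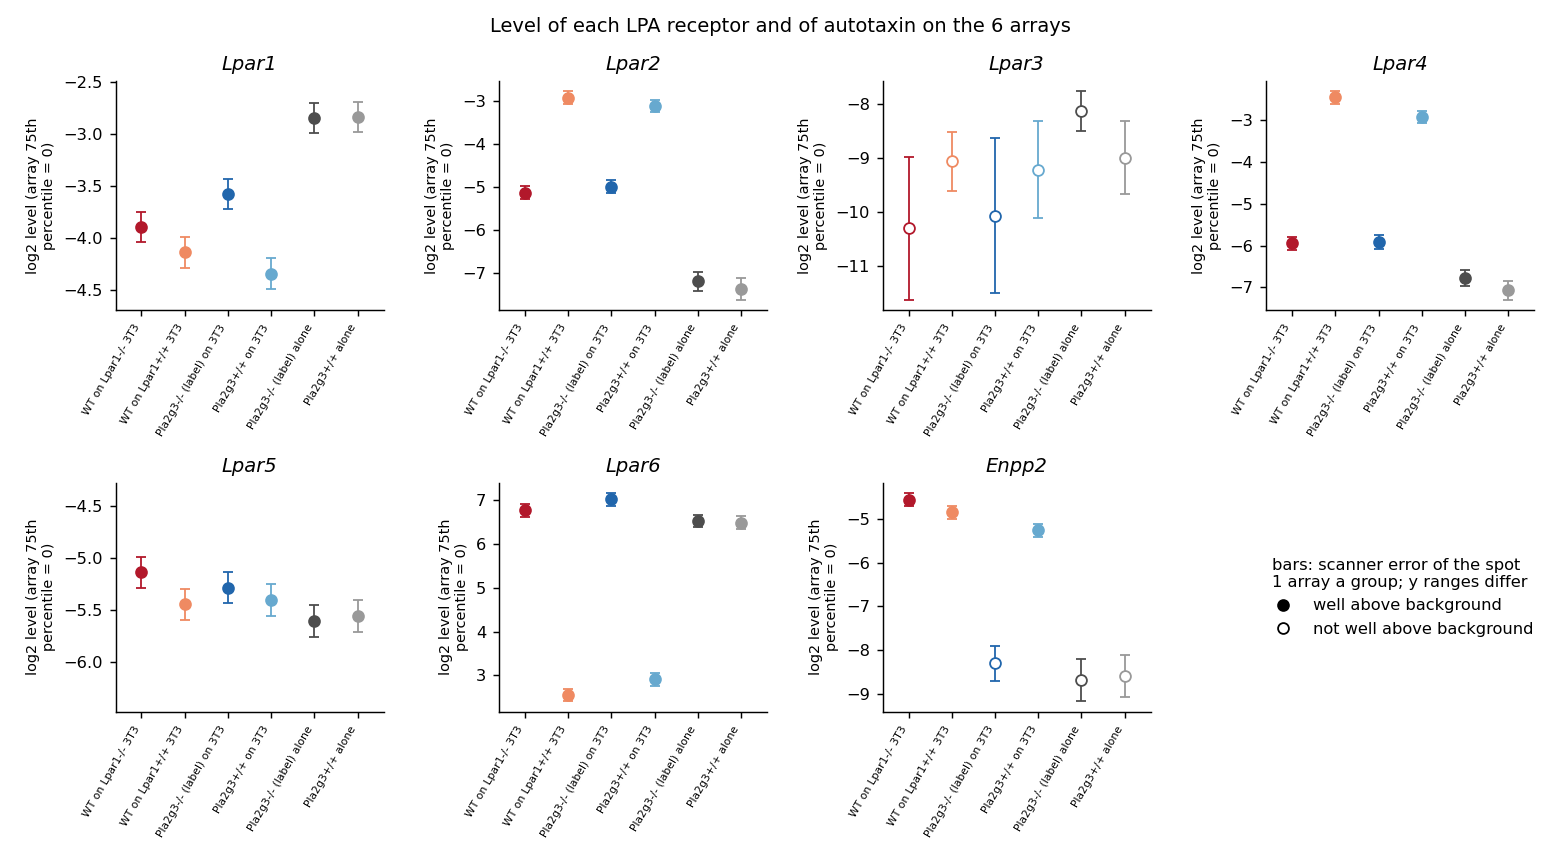
Log2 level of each member on each of the 6 arrays, relative to the array's 75th percentile; points are single arrays, bars the scanner error, open points not well above background, and the vertical ranges differ between panels. Lpar2 and Lpar4 stood highest, and Lpar6 lowest, in WT cells on Lpar1+/+ fibroblasts and in Pla2g3+/+ cells on WT fibroblasts; Lpar3 was open, and so near background, throughout.

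Enpp2, the maker of LPA, had 1 probe, at chr15:54670921-54670980 on the minus strand of mm9. It is shown because the detection of autotaxin rests on it alone.
Enpp2: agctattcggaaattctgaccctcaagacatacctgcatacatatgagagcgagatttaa
Its level was -4.56 in WT cells on Lpar1-/- fibroblasts, -4.85 in WT cells on Lpar1+/+ fibroblasts and -5.27 in Pla2g3+/+ cells on WT fibroblasts. It was not well above background in the labelled Pla2g3-/- coculture (-8.30), in labelled Pla2g3-/- cells alone (-8.68) or in Pla2g3+/+ cells alone (-8.59). The 3 detected arrays lay within the 95% range of the wild-type pair (0.51 for Enpp2) from neighbour to neighbour, and 1 of these steps is that pair itself. The highest and the lowest of them, on Lpar1-/- fibroblasts and in the Pla2g3+/+ coculture, were 0.71 apart, beyond that range. Against cells alone, coculture of Pla2g3+/+ cells thus read 10.0-fold higher. The labelled Pla2g3-/- coculture read 8.21-fold lower than the Pla2g3+/+ coculture. Both were taken against the signal of a spot not well above background, so neither is a strict minimum. The scanner errors of those spots were 0.49 in Pla2g3+/+ cells alone and 0.40 in the labelled Pla2g3-/- coculture. Deletion of Lpar1 in the fibroblasts came with a difference of 0.29 ± 0.21, under 2-fold. With another background correction, normexp with an offset of 50, the first 2 of these differences shrank to 0.54 and -0.37 on the log2 scale, below 2-fold.

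Fibroblast markers summed highest in the cocultures where Enpp2 was well above background. They also stood above cells alone in the labelled Pla2g3-/- coculture, where Enpp2 was not well above background. Their summed level, in multiples of the 75th percentile, was 33.2 in WT cells on Lpar1-/- fibroblasts, 37.3 on Lpar1+/+ fibroblasts, 15.5 in the labelled Pla2g3-/- coculture, 35.9 in the Pla2g3+/+ coculture, 3.11 in labelled Pla2g3-/- cells alone and 3.67 in Pla2g3+/+ cells alone. Timp3, a protease inhibitor, went the other way: it made up 2.92 and 3.29 of the sums in labelled Pla2g3-/- and Pla2g3+/+ cells alone, and was at most 0.501 in any coculture. Without it, a choice made after its values were seen, the other 17 markers summed to 32.7 on Lpar1-/- and 37.2 on Lpar1+/+ fibroblasts, 15.4 in the labelled Pla2g3-/- and 35.9 in the Pla2g3+/+ coculture, and 0.191 and 0.387 in labelled Pla2g3-/- and Pla2g3+/+ cells alone. In the labelled Pla2g3-/- coculture, 10 of the 16 fibroblast markers compared were at least 2-fold lower than in the Pla2g3+/+ coculture and none higher, with Col1a2 at 1.58 against 2.87 and Fn1 at 0.94 against 2.64. Lum, which marks fibroblasts, was well above background on none of the arrays. The part of fibroblast RNA in the Enpp2 levels was not tested.

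**Figure D2:**
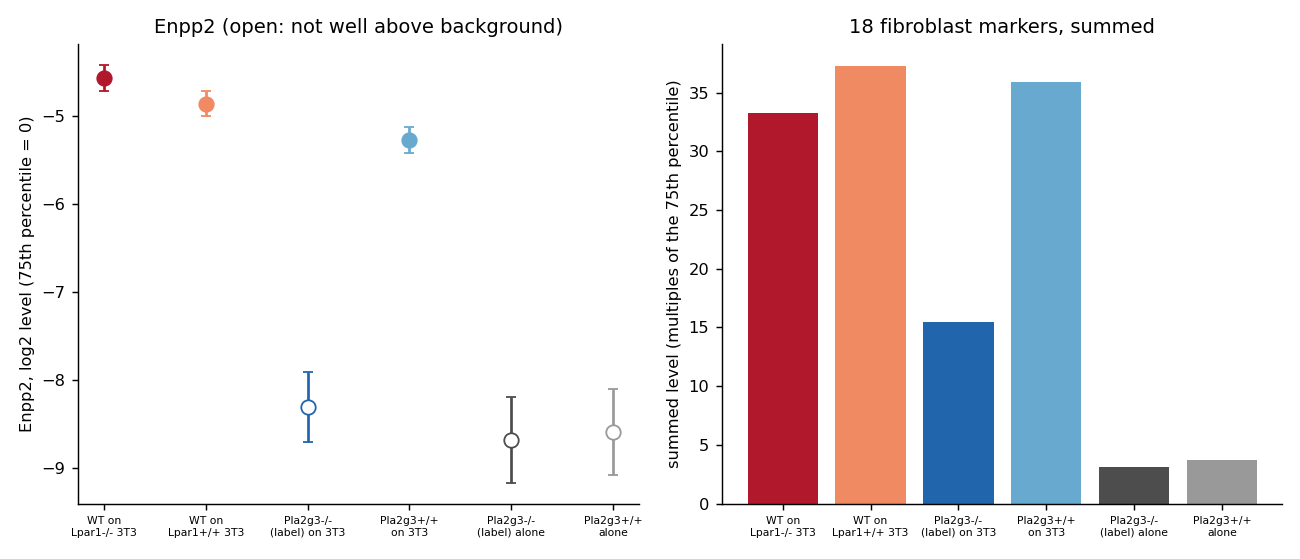
Left, log2 level of Enpp2 on each array with the scanner error; right, the summed level of 18 fibroblast markers on the same arrays, in multiples of the 75th percentile. The labelled Pla2g3-/- coculture, at 15.5 on the right, is the coculture in which Enpp2 was not well above background; in cells alone most of the sum is Timp3.

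Lpar1, the receptor that was deleted in the fibroblasts of 1 group, had 1 probe, at chr4:58499672-58499731 on the minus strand of mm9. It is shown because it was not used as a check of the Lpar1-/- label: the coculture RNA mixed fibroblast RNA with that of mast cells, and mast cells alone read higher on it than any coculture.
Lpar1: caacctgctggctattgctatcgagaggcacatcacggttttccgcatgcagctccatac
Lpar1 read -3.89 on Lpar1-/- fibroblasts, -4.14 on Lpar1+/+ fibroblasts, -3.58 in the labelled Pla2g3-/- coculture and -4.34 in the Pla2g3+/+ coculture. Cells alone were the brightest, at -2.85 under the Pla2g3-/- label and -2.84 under Pla2g3+/+. From highest to lowest, only the step of 0.73, between the cultures alone and the labelled Pla2g3-/- coculture, was beyond the 95% range for Lpar1. In Pla2g3+/+ cells, coculture was 2.83-fold lower than cells alone, a difference of -1.50 ± 0.21. Under the Pla2g3-/- label the same contrast was -0.73 ± 0.20, short of 2-fold. Lpar1-/- against Lpar1+/+ fibroblasts gave 0.25 ± 0.21, and the labels in coculture 0.76 ± 0.21, both under 2-fold.

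Lpar2, an Edg-family receptor whose tail binds the adaptors Trip6, Slc9a3r2 and Magi3 in human cells, had 2 probes on chromosome 8 of mm9, 1 well above background on all 6 arrays and 1 on 3 of them. The main probe, at chr8:72354818-72354877, stood for the gene, and its first 30 bases (chr8:72354818-72354847) are shown with the whole of the other probe (chr8:72350307-72350366), both on the plus strand, because the probes read separate stretches of the transcript.
Lpar2, main probe: cctcacaagtttggaccactaatatgtttt
Lpar2, other probe: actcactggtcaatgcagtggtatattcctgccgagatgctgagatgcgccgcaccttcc
By the main probe, Lpar2 read -5.14 on Lpar1-/- and -2.93 on Lpar1+/+ fibroblasts. In the other cocultures it read -5.00 under the Pla2g3-/- label and -3.12 in Pla2g3+/+ cells. Cells alone had the lowest levels, -7.20 under the Pla2g3-/- label and -7.37 in Pla2g3+/+ cells. The arrays thus formed 3 pairs whose own members lay within 0.19 of each other, with steps of 1.88 and 2.06 between the pairs.

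Fibroblast Lpar1 loss was paired with a difference in Lpar2 of -2.21 ± 0.21, and the Pla2g3-/- label in coculture with -1.88 ± 0.21. The coculture contrast was 4.25 ± 0.29, or 19.0-fold, in Pla2g3+/+ cells, and 2.20 ± 0.27, or 4.60-fold, under the Pla2g3-/- label. The difference between these contrasts was -2.05 ± 0.40. The other probe gave the same directions. It was 3.72-fold lower on Lpar1-/- than on Lpar1+/+ fibroblasts and 2.56-fold lower under the label in coculture. Against cells alone it was 3.72-fold higher in the Pla2g3+/+ coculture, and 1.88-fold higher under the label, short of the counted size. All but the 2.56-fold value are bounds, with the probe not well above background on the lower array. The normexp correction brought Lpar2 below 2-fold in the label contrast (-0.998, just short of it) and in the labelled coculture contrast (0.53), and gave -1.34 for the fibroblast contrast and 1.57 for coculture of Pla2g3+/+ cells.

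Lpar3, the remaining Edg-family receptor, was well above background nowhere, with levels between -10.31 and -8.14, and it is given no difference.

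Lpar4, a P2Y-like receptor known to raise cyclic AMP, had 1 probe on the X chromosome, at chrX:104127529-104127588 on the plus strand of mm9, of which the first 30 bases (chrX:104127529-104127558) are given.
Lpar4: gggacacattacagccagagagctacagta
Lpar4 read -5.94 on Lpar1-/- and -2.46 on Lpar1+/+ fibroblasts. It read -5.92 in the labelled Pla2g3-/- coculture and -2.94 in the Pla2g3+/+ coculture. Alone, labelled Pla2g3-/- cells were at -6.77 and Pla2g3+/+ cells at -7.07. The 2 wild-type cocultures were the highest and differed from each other by 0.48, slightly beyond the 95% range at that level (0.42). The other cocultures differed by 0.02 from each other and stood 0.83 or more above both cultures alone.

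Loss of fibroblast Lpar1 came with -3.48 ± 0.21 for Lpar4, and the label in coculture with -2.98 ± 0.22. Only 114 of 24540 genes compared were as low or lower in the fibroblast contrast, and 150 of 22504 in the label contrast. Coculture stood 4.13 ± 0.26 above cells alone, 17.5-fold, in Pla2g3+/+ cells. Under the Pla2g3-/- label it stood 0.85 ± 0.25 above, short of 2-fold, and the difference between the contrasts was -3.28 ± 0.36. The normexp correction moved these to -2.00, -1.49, 1.73 and 0.15.

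Lpar5, a P2Y-like receptor, was the flattest member measured, at -5.14 on Lpar1-/- fibroblasts, -5.45 on Lpar1+/+ fibroblasts, -5.29 in the labelled Pla2g3-/- coculture, -5.41 in the Pla2g3+/+ coculture, -5.61 in labelled Pla2g3-/- cells alone and -5.56 in Pla2g3+/+ cells alone. No step between neighbours was beyond the 95% range (0.54), and no contrast was larger than 0.32. Quantile normalization turned the sign of both coculture contrasts of Lpar5, to -0.21 in Pla2g3+/+ cells and -0.10 under the label.

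Lpar6, a P2Y-like receptor whose human gene is mutated in inherited forms of hair loss, had 2 overlapping probes on the plus strand of chromosome 14 of mm9, at chr14:73639469-73639528 and chr14:73639502-73639561. They share 27 bases (chr14:73639502-73639528), in capitals below, so their agreement is not that of separate stretches.
Lpar6, bases in both probes: GAACTATCTCTCCGGCTCCAACAAAAA
By the first of these, which stood for the gene, Lpar6 was at 6.76 on Lpar1-/- and at 2.56 on Lpar1+/+ fibroblasts, or 108 and 5.89 times the 75th percentile. It was at 7.004 in the labelled Pla2g3-/- coculture and at 2.91 in the Pla2g3+/+ coculture, 128 and 7.52 times the 75th percentile. Cells alone were at 6.52 under the Pla2g3-/- label and 6.48 in Pla2g3+/+ cells. The 4 arrays other than the wild-type cocultures lay within 0.53 of each other, with steps of at most 0.25. They stood 3.57 or more above both wild-type cocultures, which differed by 0.35 from each other. The 95% range for Lpar6, also 0.25, was taken near its level in the wild-type cocultures and not near that of the 4 arrays.

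The contrast of Lpar1-/- with Lpar1+/+ fibroblasts was 4.20 ± 0.20 for Lpar6, and only 63 of 24540 genes were as high or higher. That of the label in coculture was 4.09 ± 0.20, and only 36 of 22504 were as high or higher. Against cells alone, the Pla2g3+/+ coculture was 11.9-fold lower, a difference of -3.57 ± 0.20, whereas the labelled Pla2g3-/- coculture differed by 0.49 ± 0.20 and was not 2-fold apart. The other probe gave 4.27 for both the fibroblast and the label contrast, and -3.73 and 0.53 for coculture in Pla2g3+/+ and labelled Pla2g3-/- cells. In RefSeq's gene table of GRCm38.p6, Lpar6 lies within the span of Rb1, the retinoblastoma gene. Rb1 was looked at for that position, after the values of Lpar6 had been seen, and its levels were 2.85 and 2.65 on Lpar1-/- and Lpar1+/+ fibroblasts, 2.82 and 2.59 in the labelled Pla2g3-/- and the Pla2g3+/+ coculture, and 2.95 and 2.87 in labelled Pla2g3-/- and Pla2g3+/+ cells alone.

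Markers of other cell types moved with Lpar2, Lpar4 and Lpar6 in some of the contrasts. Of the macrophage and dendritic cell markers, Cd68 and Mrc1 were among those that did. Cd68 stood at 1.06 and 8.67 times the 75th percentile on Lpar1-/- and Lpar1+/+ fibroblasts, and at 2.37 and 8.76 in the labelled Pla2g3-/- and the Pla2g3+/+ coculture. In the same order, Mrc1 read -7.60, -2.37, -9.21 and -2.37 on the log2 scale, and it was well above background on 5 of the arrays. The list's summed level was 3.08 and 10.4 on Lpar1-/- and Lpar1+/+ fibroblasts, 4.36 and 10.6 in the labelled Pla2g3-/- and the Pla2g3+/+ coculture, and 2.91 and 3.78 in labelled Pla2g3-/- and Pla2g3+/+ cells alone. Without Cd68, left out after its values were seen, the other 10 markers summed to 2.03 and 1.77 on Lpar1-/- and Lpar1+/+ fibroblasts and to 1.99 and 1.82 in the labelled Pla2g3-/- and the Pla2g3+/+ coculture, so the sum lay the other way in both contrasts. Itgax was the brightest of these 10 on Lpar1-/- fibroblasts (0.910) and in the labelled Pla2g3-/- coculture (1.12), and it went the other way from Cd68. Mpeg1, Mrc1, Cd68 and Lyz2 were at least 2-fold lower and Itgax was higher under the label in coculture. Of the 11 markers, Mpeg1, Mrc1, Cd68 and C1qc were at least 2-fold lower and Itgax was higher with Lpar1-/- fibroblasts, while C1qb differed by less than 2-fold and C1qa was well above background on 2 arrays. The list's median was -0.26 in this contrast and -0.69 in that of the labels in coculture.

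Fibroblast markers moved with both Lpar2 and Lpar4 in 2 contrasts: in the label contrast of cocultures 10 of 16 were at least 2-fold lower and none higher, and in the Pla2g3+/+ coculture against cells alone 14 of 16 were higher and 2 lower. The labelled Pla2g3-/- coculture against cells alone also had 14 of 16 fibroblast markers higher and 2 lower. There Lpar2 was 4.60-fold higher, whereas Lpar4, at 0.85, was short of 2-fold. With Lpar1-/- fibroblasts 5 of 17 fibroblast markers were higher and 2 lower, with sums of 33.2 and 37.3. Mast cell markers also differed: Hdc, Tpsb2 and Mcpt4 were at least 2-fold lower, and none of the 11 higher, in both genotype contrasts of cocultures. Hdc, which makes histamine, read -0.97 and 2.32 on Lpar1-/- and Lpar1+/+ fibroblasts and 0.46 and 2.75 in the labelled Pla2g3-/- and the Pla2g3+/+ coculture.

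Neutrophil and eosinophil markers moved with Lpar6 in 2 contrasts. With Lpar1-/- fibroblasts, 6 of 10 neutrophil markers (median 1.47) and 4 of the 5 eosinophil markers compared (median 1.47) were at least 2-fold higher and none lower. In the Pla2g3+/+ coculture against cells alone, 8 of 10 neutrophil markers were lower and none higher, and 5 of 7 eosinophil markers were lower and 1 higher. In the label contrast of cocultures, where Lpar6 was higher as well, 4 of 10 neutrophil markers were lower and none higher, and 2 of the 4 eosinophil markers compared were higher. Between the labels alone, where Lpar6 differed by less than 2-fold, 8 of 10 neutrophil and 4 of 7 eosinophil markers were lower. The neutrophil markers summed to 66.3 and 51.2 on Lpar1-/- and Lpar1+/+ fibroblasts, 55.7 and 56.6 in the labelled Pla2g3-/- and the Pla2g3+/+ coculture, and 55.2 and 96.8 in labelled Pla2g3-/- and Pla2g3+/+ cells alone. Csf3r made up most of each sum, reading between 5.54 and 5.80 on the log2 scale on the 6 arrays. The sums thus say little of the other neutrophil markers. In the order of the sums, the list's median log2 level was -1.22, -2.11, -3.64, -2.48, -3.02 and 0.25. The part of other cells in these receptors' levels was not tested.

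**Figure D3:**
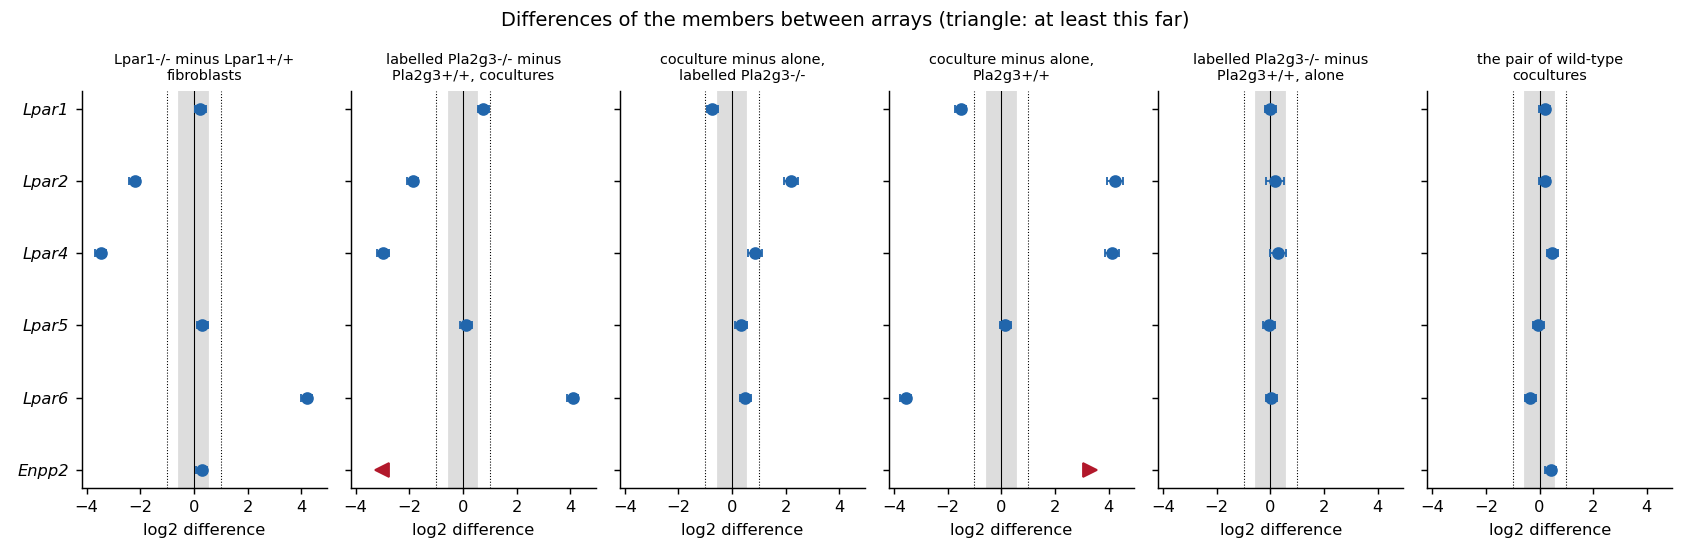
Log2 differences of 6 members in the 5 contrasts and in the pair of wild-type cocultures (first group minus second); bars are the scanner error, triangles bounds, dotted lines 2-fold and the grey band the range that held 95% of genes in the wild-type pair (0.54). Lpar2 and Lpar4 lie left and Lpar6 right of the band in both genotype contrasts of cocultures.

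Counted over the members that could be compared, 3 of 6 were past 2-fold with Lpar1-/- fibroblasts, 1 higher and 2 lower, where 11.9% of all 24540 genes compared were higher and 9.75% lower. In the label contrast of cocultures, 4 of 6 were past 2-fold, 1 higher and 3 lower, where 9.48% of 22504 genes were higher and 12.3% lower. Coculture against alone had 5 of 6 past 2-fold in Pla2g3+/+ cells, 3 higher and 2 lower, where 14.8% of genes were higher and 8.02% lower. Under the Pla2g3-/- label 1 of 5 was, Lpar2 alone, where 12.7% were higher and 9.45% lower. Cells alone had 0 of 5 past 2-fold between the labels, where 0.874% were higher and 2.12% lower, and the wild-type pair had 0 of 6, where 2.51% were higher and 0.237% lower. The members were chosen by name, and with 6 of them at most, these shares are counts beside those of all genes and not a test.

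The share of higher calls among all genes depended on the scaling in the Pla2g3+/+ coculture contrast, where it was 64.9%, against 52.3% after quantile normalization, and in the wild-type pair, where it was 91.4%, against 66.0%. In 2 contrasts the larger side turned: the share of higher calls was 57.4% in the labelled coculture contrast, against 49.6% after quantile normalization, and 43.4% in the label contrast of cocultures, against 52.6% after normexp and 49.7% after quantile normalization. Between the labels alone it was 29.1%, against 19.8% after normexp and 32.6% after quantile normalization, and with Lpar1-/- fibroblasts 55.0%, against 52.3% and 54.3%. The median of all genes in that coculture contrast was 0.14, and 0.00 after quantile normalization and -0.01 after normexp. In the labelled coculture contrast it was 0.12, and 0.02 after quantile normalization. In the label contrast of cocultures it was -0.08, and 0.09 after normexp.

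The promoter windows of Lpar2, Lpar4 and Lpar6 are shown since these 3 receptors moved most, and Lpar2 and Lpar4 opposite to Lpar6. Sequences are RefSeq's on GRCm38.p6, 250 bases before to 50 after the gene's start, all on the plus strand, and 6 of the 7 members had an entry. Matches of 8 motifs, searched on both strands with N for any base, are in capitals.
Lpar2, chr8:69822315-69822614: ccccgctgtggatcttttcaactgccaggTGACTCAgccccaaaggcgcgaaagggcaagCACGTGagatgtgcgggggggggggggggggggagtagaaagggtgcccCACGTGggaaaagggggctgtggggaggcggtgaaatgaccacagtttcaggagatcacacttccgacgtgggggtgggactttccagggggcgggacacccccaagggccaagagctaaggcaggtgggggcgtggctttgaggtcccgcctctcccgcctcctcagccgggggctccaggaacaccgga
Lpar4, chrX:106920375-106920674: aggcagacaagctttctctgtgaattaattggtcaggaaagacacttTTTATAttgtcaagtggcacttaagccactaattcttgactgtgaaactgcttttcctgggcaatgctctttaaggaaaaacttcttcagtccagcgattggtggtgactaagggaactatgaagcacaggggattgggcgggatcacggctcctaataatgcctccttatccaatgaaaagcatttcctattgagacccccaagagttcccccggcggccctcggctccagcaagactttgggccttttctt
Lpar6, chr14:73237641-73237940: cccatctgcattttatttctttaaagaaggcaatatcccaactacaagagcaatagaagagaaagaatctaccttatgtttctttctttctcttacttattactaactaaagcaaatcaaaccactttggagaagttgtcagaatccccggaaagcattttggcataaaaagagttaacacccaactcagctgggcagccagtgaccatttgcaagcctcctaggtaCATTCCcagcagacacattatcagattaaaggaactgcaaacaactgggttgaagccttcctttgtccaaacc
The Lpar2 window held 1 AP-1 match and 2 E-box matches, the Lpar4 window 1 TATA match, and the Lpar6 window 1 TEAD match. Among all 32851 windows of this length, the AP-1 motif, spelled TGANTCA here, was present in 7.81%, and the E-box, spelled CACGTG, was present in 7.15%. The TATA motif, spelled TATAAA, was present in 13.6%, and the TEAD motif, spelled GGAATG, was present in 14.7%. The motifs with no match in these 3 windows were the CRE, spelled TGACGTCA and present in 1.79%, the GATA motif, spelled AGATAA and present in 11.2%, the M-box, spelled CACATG and present in 14.2%, and the EGR motif, spelled GCGTGGGCG and present in 0.612%. No 2 of the matches overlapped. Their G and C content was 66.0% for Lpar2, 46.7% for Lpar4 and 40.0% for Lpar6, against a median of 52.7%. A match describes letters in the window and is not a binding site.

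Genes whose profile over the 6 arrays was most like a member's were sought among 19705 genes well above background on all of them, by the root mean square distance between centred log2 profiles. Stab2, a scavenger receptor, was closest to Lpar6 at 0.06, and read 2.78 and -1.47 on Lpar1-/- and Lpar1+/+ fibroblasts and 2.93 and -1.22 in the labelled Pla2g3-/- and the Pla2g3+/+ coculture. A transcript with no gene symbol in the file lay at 0.15 from Lpar6, and Ifitm1, an interferon-inducible membrane protein, at 0.17. Lpar2 was most like Tent5b (0.17), Scpep1 (0.26) and Tcf7l1 (0.27), and Lpar4 most like Tmem88 (0.27), Slc23a3 (0.30) and Cma2 (0.34). Cma2, a chymase of the mast cell protease locus, read 1.20 and 4.58 on Lpar1-/- and Lpar1+/+ fibroblasts. Nearest to Lpar1 were Tiparp (0.09), H2bc23 (0.10) and Fam118b (0.11), and nearest to the flat Lpar5 were Baz2b (0.02), Dlat (0.03) and Zfp280b (0.03). Enpp2 had its nearest genes, Cdsn, Tmem44 and Inhbb, at 0.54, 0.67 and 0.68, distances that include 3 Enpp2 values not well above background. A small distance over 6 arrays describes shape and is no sign of shared function or control.

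**Figure D4:**
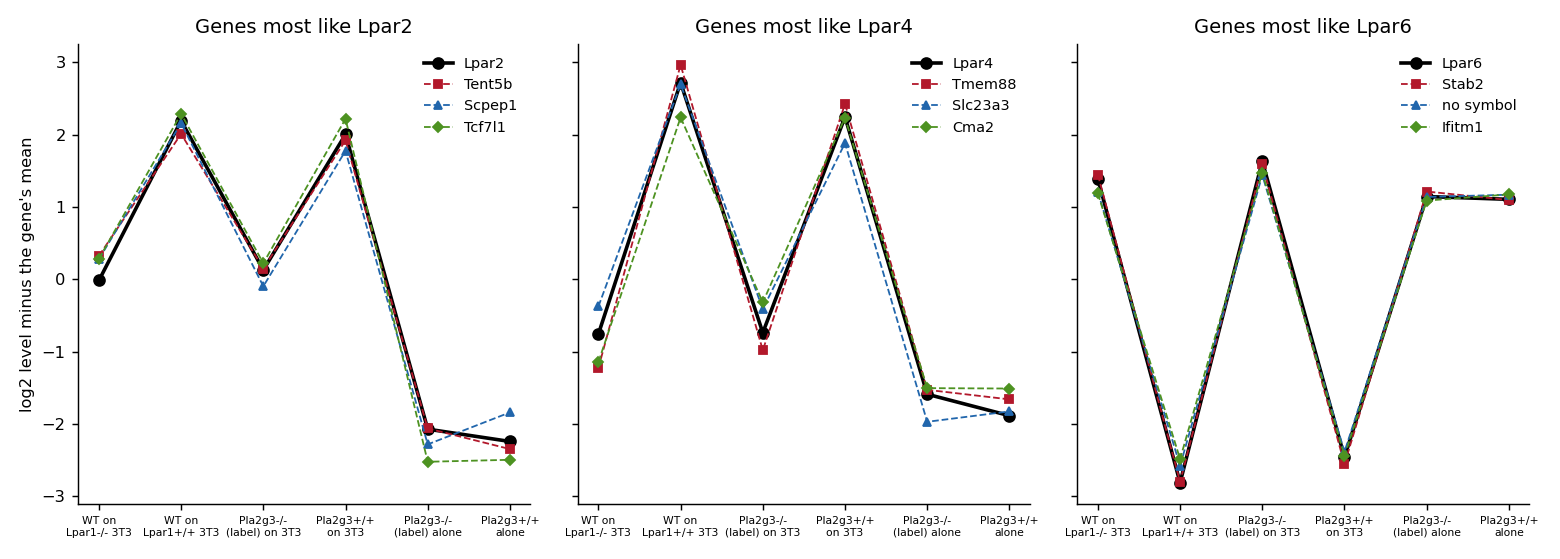
Centred log2 levels of Lpar2, Lpar4 and Lpar6 (black) and of the 3 genes nearest to each, on the 6 arrays. Lpar6 and Stab2 almost coincide, with a distance of 0.06.

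The rest of the LPA pathway was described from a list of 58 genes: makers of LPA, enzymes that remove it, G proteins and effectors that receptors couple to, other proteins proposed to bind LPA, and the rest of the Enpp family. With Lpar1-/- fibroblasts, 6 of the 54 compared were at least 2-fold higher and 8 lower, together 25.9%, near the 21.7% of all genes past 2-fold there. Gnai1, an inhibitory G protein alpha subunit, was 69.4-fold lower, at -4.88 on Lpar1-/- and 1.23 on Lpar1+/+ fibroblasts. Gpat3, a glycerol phosphate acyltransferase, was 4.10-fold lower, Plpp2, a lipid phosphate phosphatase, 2.97-fold lower and Rhob, a small GTPase, 2.66-fold lower. Gdpd3, a lysophospholipase D that acts inside cells, was 7.56-fold higher, at 3.45 and 0.54, P2ry10, a receptor for lysophosphatidylserine, 4.93-fold higher, Enpp3 3.74-fold higher and Abhd6, a lipase, 3.61-fold higher. The median of the list was -0.02, and that of all genes -0.05.

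Under the Pla2g3-/- label in coculture, 5 of 53 were higher and 10 lower, together 28.3%, where 21.8% of all genes were past 2-fold. Gnai1 was 28.3-fold lower (-3.38, against 1.45 in Pla2g3+/+ cells) and Gnaq, an activator of phospholipase C, 3.58-fold lower, while Enpp3 and Pla1a, a phospholipase A1, had bounds of 3.87-fold and 2.91-fold lower. Gdpd3 was 5.71-fold, P2ry10 5.51-fold, Abhd6 3.97-fold and Gpr35, a receptor proposed to bind LPA, 2.61-fold higher. The list's median was -0.23 and that of all genes -0.08. Fibroblast markers were lower in the same contrast, 10 of 16 by at least 2-fold with a median of -1.28, and their part in the list was not tested.

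The fibroblast and the label contrast share no array, and 10 genes of the list were past 2-fold the same way in both, 4 higher and 6 lower, which is 71.4% of the fibroblast contrast's and 66.7% of the label contrast's. Over all genes, 3380 were past 2-fold the same way in both, 63.6% of the fibroblast contrast's and 68.8% of the label contrast's, so the shares of the list lay near those of all genes. Enpp3 went opposite ways.

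**Figure D5:**
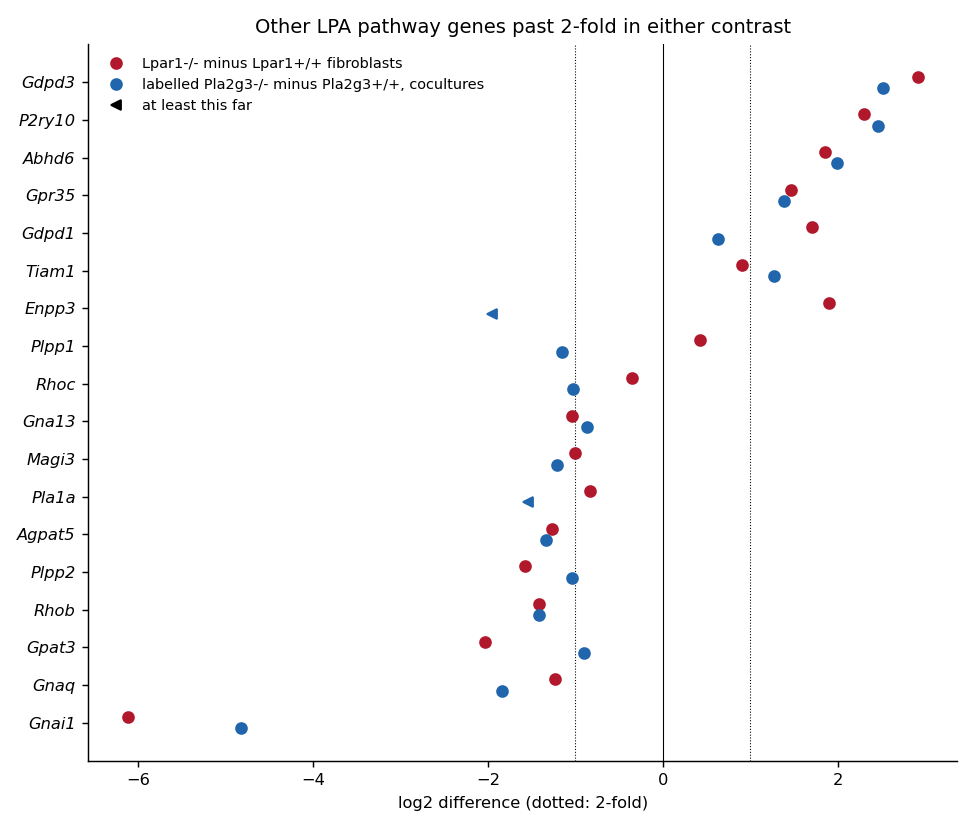
Log2 differences of the LPA pathway genes other than the members that were past 2-fold (dotted lines) in either contrast; red, Lpar1-/- minus Lpar1+/+ fibroblasts; blue, labelled Pla2g3-/- minus Pla2g3+/+ cocultures; triangles are bounds. Gnai1 lies farthest left in both, and Enpp3 is on opposite sides.

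Coculture against alone had 15 of 53 genes of the list higher and 4 lower in Pla2g3+/+ cells, together 35.8%, where 22.8% of all genes were past 2-fold. Gnai1 was 34.1-fold, Trip6, a partner of Lpar2, 23.4-fold, Gpat3 18.4-fold and Gnaq 12.8-fold higher, and P2ry10 3.97-fold, Plcb1, a phospholipase C, 3.77-fold, Tiam1, an exchange factor for Rac, 2.76-fold and Gdpd3 2.49-fold lower. Labelled Pla2g3-/- cells had 11 of 51 higher and 3 lower, together 27.5% beside 22.2% of all genes, with Trip6 23.7-fold, Gpat3 19.2-fold, Agpat4, an LPA acyltransferase, 5.68-fold and Gnaq 5.22-fold higher, and Agpat5 2.88-fold, Plcb1 2.84-fold and Rhob 2.11-fold lower. In these contrasts the list's medians were 0.32 and 0.24 in Pla2g3+/+ and labelled cells, and those of all genes 0.14 and 0.12. Fibroblast markers moved with both: 14 of the 16 compared were at least 2-fold higher and 2 lower in each, with medians of 7.89 and 5.87, and the part of fibroblast RNA in the list was not tested. Alone, 1 of 51 genes was past 2-fold between the labels, Pparg, a nuclear receptor, 3.03-fold lower under the Pla2g3-/- label, and none of 54 in the wild-type pair, where 3.00% and 2.75% of all genes were. Markers of other cells were lower with Pparg: 8 of 10 neutrophil (median -3.65), 4 of 7 eosinophil (median -4.96), 4 of 10 macrophage and dendritic and 3 of 8 platelet markers, with none of these higher, and their part in the Pparg level was not tested.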

How the data were processed

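Per the file headers, the authors scanned single-colour arrays and made the deposited spot intensity with Agilent Feature Extraction 12.1.1.1, with spatial detrending, subtraction of background and, for dim spots, a surrogate. The value table deposited beside them has linear signal values, which equalled the processed intensity divided by 1 number an array, within 0.1% for 100% of its 44397 rows, with column medians between 0.0338 and 0.0483. Its scale and direction were thus settled, and it was not used further.

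Levels were log2 of the processed intensity minus the array's 75th percentile over noncontrol spots. Outlier spots were left out, and spots of a probe averaged, which kept 39416 of 39429 probes. For a gene with several probes, the brightest by mean level over the 6 arrays stood for it. Names came from RefSeq's table of GRCm38.p6 by accession for 29496 probes, by symbol for 3005 and by synonym for 16, and 6903 kept the file's name. Coordinates of probes come from the files (mm9), and exon or untranslated region was not looked up. A probe not well above background on 1 of both arrays gives a bound, against the higher of its own signal and the lowest well above background there. Where its own signal was the higher, as for Enpp2, the bound is the difference as read. Such a bound is not a strict minimum. The number of arrays, 1 a group, limits the precision, and no p-value was computed.

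The members, lists and thresholds were chosen with earlier results of these data known. Beside all members, the text names up to 4 highest and 4 lowest pathway genes past 2-fold per contrast, the 3 genes nearest to each member detected on at least 3 arrays, and Pla2g3. Alternatives were normexp (limma 3.58.1, R 4.3.3), quantile normalization, detection on both arrays, no filter, the mean of all probes, 3-fold and the other wild-type coculture. The differences and calls were tested on simulated data, in Python 3.11.15.

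After coculture, the protocols name both nonadherent cells and isolation on CD117 beads, without saying which route gave the arrayed cells, nor whether cells alone received stem cell factor.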

Additional observations from a re-analysis of the deposited data

Results flagged for a closer look

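Contrasts of coculture with cells alone had opposite signs under the 2 mast cell labels for Lpar6, 1 of the 5 members measured in both, and for 16 of the 50 other pathway genes measured in both, and these differences were not tested. The share of all genes with opposite signs was not counted, so these counts are not a result about the members or the pathway. Lpar6 and 4 of the 16 were also at least 2-fold apart from cells alone in 1 or both contrasts, and these are given here; the other 12 were past 2-fold in neither. For Lpar6 the labelled Pla2g3-/- contrast was 0.49 and the Pla2g3+/+ contrast -3.57 on the log2 scale, 4.05 apart. For Gdpd3 they were 1.18 and -1.32, 2.50 apart. P2ry10 had 0.42 and -1.99, 2.41 apart. Rhob had -1.07 and 0.60, and labelled minus Pla2g3+/+ was -1.68. Magi3 had -0.15, little different from 0, and 1.11, and labelled minus Pla2g3+/+ was -1.25. In each case 1 array stands for a group, and the slide is shared by both cocultures and by both cultures alone. Only a slide effect of equal size on the arrays of a slide would cancel in the difference, and this was not tested.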

How the results depend on the processing

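Of 13 member differences past 2-fold, 82 values under the other settings all kept their direction, and 77 of them were also past 2-fold. Part of the 82 could not move, so these counts overstate how stable the differences are. The settings on detection leave a measured difference as it was, and so does the mean of all probes for a member with a single probe. The 5 values under 2-fold came from normexp, for Lpar2 and Enpp2, and from the other probe of Lpar2. The normexp correction, which adds an offset of 50 to every spot, left 0 members past 2-fold in the labelled Pla2g3-/- coculture contrast and 2 in the label contrast of cocultures, and 0 pathway genes between labels alone. Over all genes it left 2431, 2020, 116, 2548, 3041 and 4 calls in the Pla2g3+/+ coculture, labelled coculture, label alone, label in coculture, fibroblast and wild-type pair contrasts. A 3-fold limit left 2564, 2163, 258, 2272, 2414 and 78 in the same order, and 7, 6 and 7 pathway genes in the labelled coculture, label in coculture and fibroblast contrasts. Detection on both arrays left 308 calls between labels alone and 99 in the wild-type pair. With no filter there were 1716 and 1808, and 3 and 1 pathway genes in these, and 2 members in the labelled coculture contrast. The other counts were within 1.5 times those reported. No paired analysis was possible because each group has 1 array. Spots near background limit Lpar3, Enpp2 and the Lpar2 probe detected on 3 arrays.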

Other observations

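Some fibroblast markers did not follow the rest. Thy1, a surface protein of fibroblasts, read 0.76 in WT cells on Lpar1-/- fibroblasts, against -6.85 on Lpar1+/+ fibroblasts, and it was between -9.20 and -2.36 on the other arrays. Postn, a matrix protein, was well above background on the Lpar1-/- array alone, at -4.24. Lox was at -2.78 there, against -4.25 on Lpar1+/+ fibroblasts, and Pdgfrb at -0.74, against -1.86. Col6a1 was at -0.52, against 0.64, and Ddr2 at -2.35, against -0.79. The Lpar1-/- fibroblasts came from single-cell cloning, and what is due to the clone and what to Lpar1 cannot be told apart.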
